A study of Triticum aestivum with 12 samples.

Results

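The genes described here are 200 wheat genes whose transcripts were more abundant in the flag leaf of the RNAi line E82 than in that of its wild type (WT), and which were well counted in WT leaf. They were chosen by a rule. A gene needed at least 50 counts in each WT leaf library, a level above every WT leaf library in every E82 leaf library, and an E82/WT ratio of mean levels of at least 2 in leaf and at least 0.67 in grain. Levels are in CPM, which relate each count to the total of its library, with 0.1 CPM added to each mean in the ratio. A stretch of chromosome 3D, TraesCS3D02G454400 and all later IDs of that chromosome, was left out. Of 107892 genes in the table, 23318 had the 50 counts in each WT leaf library and are called counted genes below. The E82 leaf libraries lay above the WT leaf libraries without overlap for 2606 of them (11.2%), the leaf ratio reached 2 for 885, and 833 also met the limit on the grain ratio. The stretch of 3D held 31 of the 833, which left 802 genes, and the 200 with the highest leaf ratios are the members.

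The study sequenced RNA from the grain and flag leaf of both lines at 20 days after anthesis (DAA), to ask whether the loss of gliadins in the grain goes along with changes in the leaf that feeds it. E82 is a bread wheat line derived from BW208, which served as the WT, and it carries hairpin constructs against the omega, alpha and gamma gliadins under endosperm-specific promoters. There were 4 groups, E82 leaf, WT leaf, E82 grain and WT grain, each with 3 biological replicates. E82 is a single selfed transgenic line, so that effects of the hairpins and of other differences between the lines cannot be told apart, and in a bulk tissue neither can fewer cells of a type and less RNA per cell.

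During grain filling the flag leaf is the main source organ of the wheat plant. It fixes carbon, stores part of it as transitory starch in chloroplasts, and exports sucrose and amino acids through the phloem, increasingly so as it ages and its proteins are broken down. Granule-bound starch synthase makes amylose: the GBSSI (waxy) form works in the endosperm, and the GBSSII form in leaf and other tissues that store starch only for a time. Bread wheat has the subgenomes A, B and D, so that most genes have near-identical copies (homeologs).

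Total counts were between 55529571 and 59921210 in E82 leaf, between 27173003 and 41002932 in WT leaf, between 31716861 and 44827227 in E82 grain and between 47733400 and 50630025 in WT grain. Between 55997 and 59916 genes had counts above 0 in E82 leaf and between 31623 and 45720 in WT leaf. The spread between replicates, as the biological coefficient of variation (the replicate SD relative to the mean, estimated over all genes), was 0.424 in E82 leaf, 1.69 in WT leaf, 0.782 in E82 grain and 0.731 in WT grain. The tissue labels were checked with genes that the study's tables name: the GBSSI gene of 4A (TraesCS4A02G418200) had 0 counts in all 6 leaf libraries and at least 36.8 CPM in every grain library, and the sucrose transporter gene TaSWEET13f-6D (TraesCS6D02G367400) had at least 350.0 CPM in every leaf library and 0 counts in all grain libraries. Only 2 members are named in those tables. The others are given by their IDs, which state the chromosome, and no function is assigned to them.

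The 200 members made up 0.975%, 0.941% and 0.991% of all counts in the E82 leaf libraries, against 0.330%, 0.294% and 0.258% in the WT leaf libraries. Their median level was 30.8, 29.7 and 28.2 CPM in E82 leaf, against 9.74, 8.56 and 7.75 CPM in WT leaf. The replicates of each line lay close together at this summed level, and the lines stood apart, as the rule requires. The leaf ratio of the members was between 2.66 and 6.95, with a median of 3.05. It was at least 3 for 112 members, at least 4 for 25 and at least 5 for 7, whereas the 602 genes ranked after them had a median of 2.20 and all counted genes one of 0.809. On the TPM scale, which also takes account of transcript length, the members' mean levels were between 1.47 and 4280 in E82 leaf (median 18.8) and between 0.429 and 1420 in WT leaf (median 5.48). Both highest values belonged to a single unplaced gene, TraesCSU02G270000, whose mean in E82 leaf was 278 CPM. The next member had 342 TPM in E82 leaf. By CPM the highest mean of a member in E82 leaf was 570. Signs of library quality moved with this contrast: every WT leaf library had fewer counts and fewer genes above 0 than any E82 leaf library, and by the study's read statistics a smaller share of its reads had pseudoaligned. Their part in the leaf ratios was not tested.

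**Figure D1:**
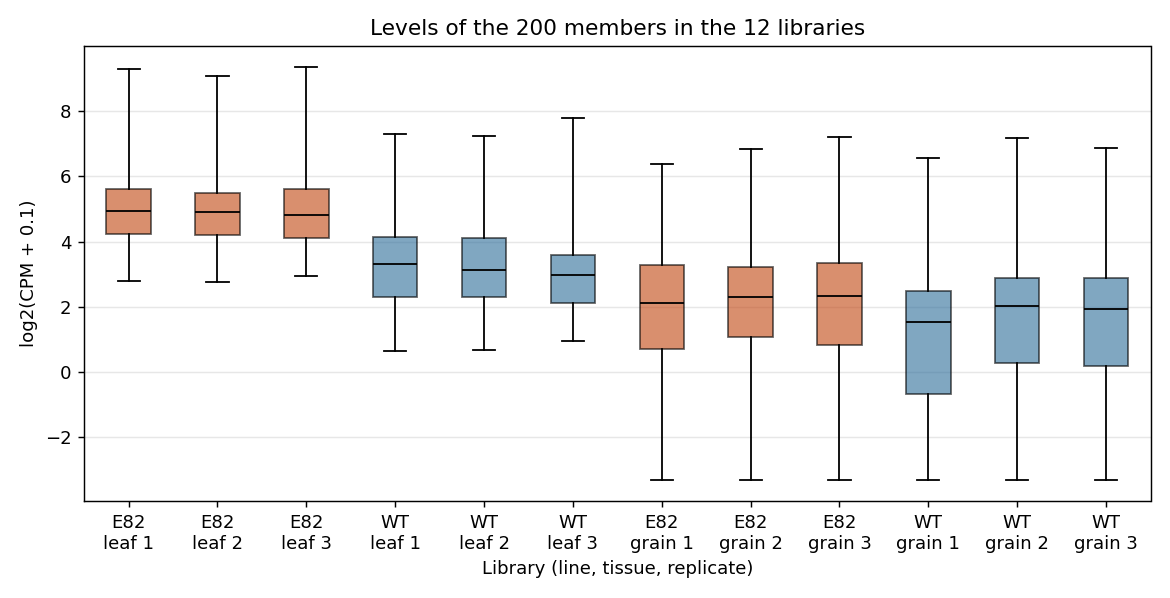
Levels of the 200 members in the 12 libraries, as log2(CPM + 0.1); boxes span the quartiles with the median as a line, and whiskers reach the lowest and highest member. The medians of E82 leaf (28.2 to 30.8 CPM) stand above those of WT leaf (7.75 to 9.74 CPM), E82 grain (4.22 to 4.94 CPM) and WT grain (2.82 to 3.93 CPM).

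The starch synthesis gene among the members was TraesCS2B02G390700, which encodes GBSSII and lies on chromosome 2B. It had 24.1, 49.0 and 30.5 CPM in E82 leaf, against 6.17, 13.4 and 2.50 CPM in WT leaf. Even the lowest E82 leaf library was above the highest WT one, and WT leaf 3 was the lowest of all. The leaf ratio of GBSSII was 4.64, the 11th highest. In grain GBSSII had 4.22, 1.80 and 5.88 CPM in E82, against 3.79, 3.18 and 4.21 CPM in WT. These values overlapped, with E82 libraries at both ends of the range, and the grain ratio was 1.06, whereas with TMM scaling the grain log2 fold change of GBSSII was -0.11. Per length, GBSSII averaged 15.0 TPM in E82 leaf and 3.25 TPM in WT leaf.

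The member on the study's list of sugar and amino acid transporters was TraesCS4A02G083100, named TaTTP3-4A there and placed among the amino acid transporters. It had 44.7, 33.2 and 41.3 CPM in E82 leaf, against 13.3, 3.76 and 4.23 CPM in WT leaf. WT leaf 1 was well above the other WT libraries and below every E82 library. The leaf ratio of TaTTP3-4A was 5.55, the 5th highest of all members. In grain TaTTP3-4A had 17.7, 11.4 and 14.6 CPM in E82, against 3.72, 10.7 and 8.55 CPM in WT. The lines did not overlap there either, although E82 grain 2 and WT grain 2 were nearly equal, and the grain ratio was 1.89. The grain limit of the rule concerned only low ratios.

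The study's tables hold 198 genes in all, and 6 of them were among the 802 eligible genes. Besides GBSSII and TaTTP3-4A these were the genes for a sucrose-phosphate synthase, an enzyme of sucrose synthesis (SPS, TraesCS4B02G091100, leaf ratio 2.27), the amino acid transporter TaProT1-2B (TraesCS2B02G287200, leaf ratio 2.26), the transcription factor TabZIP54.1 (TraesCS2B02G269600, leaf ratio 2.19) and a serine protease (TraesCS1B02G472100, leaf ratio 2.14). They ranked 434th, 453rd, 509th and 571st. Of the 55 genes on the transporter list 51 were tested in leaf, and their median log2 fold change was -1.98, beside 0.21 over all genes tested. After Benjamini-Hochberg adjustment over all genes, the quasi-likelihood test of edgeR called 0 of the 51 higher (0.0204% of all genes tested) and 1 lower (0.143%) in E82 leaf at 0.05. At an unadjusted p under 0.05, 13 were higher (14.2%) and 36 lower (5.06%). DESeq2 called 10 higher (6.43%) and 36 lower (4.13%), and the likelihood ratio test of edgeR called 12 higher (10.1%) and 31 lower (2.48%). Of the 20 starch synthesis genes 14 were tested, and their median log2 fold change was -0.23. The quasi-likelihood test called 0 of them, with 6 higher and 4 lower at an unadjusted p under 0.05, and the other tests each called 5 higher and 4 lower. The study compiled both lists from these same libraries, so that their counts are no independent evidence of a direction. The study's list of cysteine proteases and their inhibitors (14 genes) and its list of 30 candidate transcription factors had no gene among the 802. Only 8 and 5 of their genes were counted genes, of which 802 in 23318 were eligible, so nothing is read from this.

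The highest leaf ratio, 6.95, belonged to TraesCS4D02G210400 on chromosome 4D. It had 21.8, 17.4 and 26.4 CPM in E82 leaf, against 5.16, 1.53 and 2.50 CPM in WT leaf. In grain it had 24.9, 14.9 and 21.5 CPM in E82, against 17.4, 16.9 and 21.1 CPM in WT. The E82 leaf libraries overlapped with the grain libraries of both lines, while every WT leaf library lay below all of them. The grain ratio was 1.1, and the grain log2 fold change with TMM scaling was -0.05. TraesCS4D02G178100, also on 4D, followed with a ratio of 6.14. It had 29.1, 40.9 and 25.2 CPM in E82 leaf, against 4.59, 7.34 and 3.31 CPM in WT leaf, and the lowest E82 library was 3.43 times the highest WT one, the widest gap of any member. TraesCS5D02G401300, with a ratio of 6.12, had 216, 370 and 534 CPM in E82 leaf, against 124, 26.3 and 32.8 CPM in WT leaf. Its libraries differed widely within each line, and WT leaf 1 came nearest to the E82 range.

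TraesCS6B02G182800 had 28.7, 25.5 and 33.7 CPM in E82 leaf, against 10.6, 2.81 and 1.84 CPM in WT leaf (ratio 5.65). TraesCS3B02G195800 had 36.3, 22.9 and 45.7 CPM in E82 leaf, against 7.17, 6.22 and 5.30 CPM in WT leaf (ratio 5.54). For TraesCS3B02G195800 the WT libraries were close together, whereas for TraesCS6B02G182800 WT leaf 1 was well above the others. TraesCS2A02G527800 had 37.9, 53.9 and 52.4 CPM in E82 leaf, against 14.2, 6.88 and 4.71 CPM in WT leaf (ratio 5.54). TraesCS3A02G191400 (ratio 4.85), TraesCS2B02G257300 (ratio 4.84) and TraesCS1D02G352500 (ratio 4.79) completed the 10 highest. The high WT leaf library was not the same for all of them: it was replicate 3 for TraesCS1D02G352500, with 9.05 CPM beside 2.45 and 3.07 CPM, and replicate 2 for TraesCS2B02G257300, with 7.41 CPM beside 1.67 and 3.50 CPM.

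**Figure D2:**
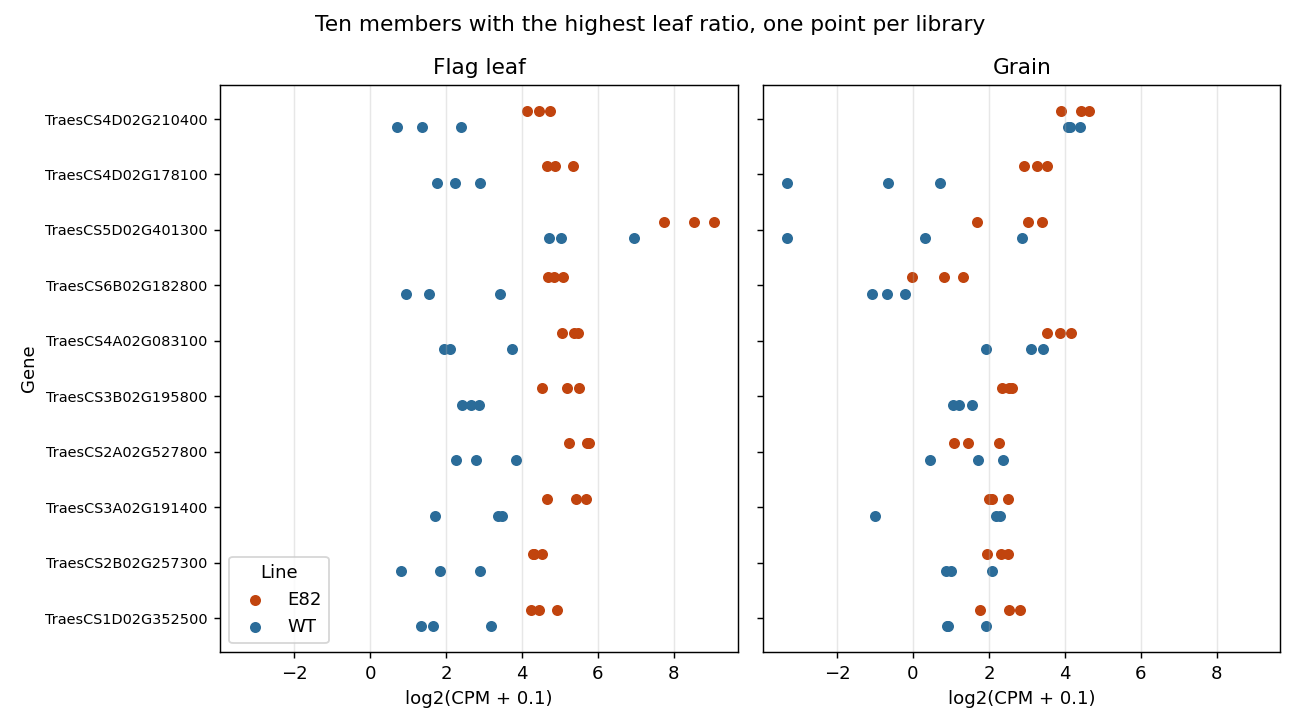
The 10 members with the highest leaf ratio in flag leaf (left) and grain (right); each point is a library, on a log2(CPM + 0.1) axis, with E82 above WT for each gene. In leaf the lines do not overlap for any of them, as the rule requires, while in grain TraesCS4D02G178100 stands out with a ratio of 12.1 and TraesCS4D02G210400 has a ratio of 1.1 (log2 fold change of -0.05 with TMM scaling).

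By level per length the members were led by TraesCSU02G270000, an unplaced gene, with a mean of 4280 TPM in E82 leaf and 1420 TPM in WT leaf. It had 319, 174 and 339 CPM in E82 leaf, against 152, 62.8 and 85.0 CPM in WT leaf. The lowest E82 library, replicate 2, was only a little above WT leaf 1. TraesCS4D02G134900 came next, with 342 TPM in E82 leaf and 85.9 TPM in WT leaf. It had 529, 543 and 614 CPM in E82 leaf, against 103, 93.5 and 222 CPM in WT leaf, and at most 0.274 CPM in any grain library. Nearly all of its transcript was thus found in leaf, in both lines. TraesCS5D02G401300, described above, averaged 235 TPM in E82 leaf and 38.8 TPM in WT leaf. The other 7 of the 10 most abundant members were TraesCS1D02G203500, TraesCS7B02G242200, TraesCS4B02G140200, TraesCS6D02G122800, TraesCS1D02G003700, TraesCS4D02G050700 and TraesCS1A02G197900, with means between 106 and 152 TPM in E82 leaf and between 31.0 and 53.7 TPM in WT leaf.

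At the lower end of the ranking the limit fell within a dense run of ratios. TraesCS1D02G279600, TraesCS3A02G005900 and TraesCS4B02G313900, just inside, had leaf ratios of 2.668, 2.668 and 2.664. TraesCS4B02G281700, TraesCS2D02G350400 and TraesCS2A02G297300, just outside, had ratios of 2.663, 2.663 and 2.661. The lowest E82 leaf library was between 1.06 and 3.43 times the highest WT one over the members, with a median of 1.85. This gap was at least 2 for 78 members and under 1.1 for 2, TraesCS7D02G261400 (1.06) and TraesCS3A02G393900 (1.08). TraesCS3A02G393900 had 41.9, 59.0 and 27.6 CPM in E82 leaf, against 6.76, 25.6 and 13.3 CPM in WT leaf, so that E82 leaf 3 and WT leaf 2 almost met.

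The members varied more among WT leaf libraries than among E82 leaf libraries. Their median coefficient of variation was 15.7% in E82 leaf (17.7% for all counted genes) and 46.3% in WT leaf (39.8% for all counted genes). In WT leaf the highest library was between 1.06 and 13.8 times the lowest, with a median of 2.54, and it was at least 3 times the lowest for 78 members. TraesCS3A02G311900 had the widest range. It had 54.2, 49.9 and 43.9 CPM in E82 leaf, against 35.1, 17.0 and 2.55 CPM in WT leaf. TraesCS1A02G152600 had the narrowest WT range, with 13.2, 7.53 and 15.3 CPM in E82 leaf, against 3.65, 3.72 and 3.86 CPM in WT leaf. These 2 genes were picked after their values were seen. WT leaf 1 was the highest WT library for 92 members, or 46.0% (29.8% of counted genes), WT leaf 2 for 67 and WT leaf 3 for 41, or 20.5% (40.9% of counted genes). In E82 leaf the highest library was replicate 1 for 69 members, or 34.5% (20.9% of counted genes). It was replicate 2 for 64, or 32.0% (50.8%), and replicate 3 for 67, or 33.5% (28.3%). WT leaf 3 also had the lowest total count and the fewest genes above 0. When WT leaf 1, 2 or 3 was left out, the 200 highest ratios under the rule included 104, 107 or 70 of the members.

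In the quasi-likelihood test of edgeR on the 6 leaf libraries, with p-values adjusted after Benjamini and Hochberg over 53874 genes, 0 of the 200 members were called higher in E82 leaf at 0.05, beside 0.0204% of all genes tested. At an unadjusted p under 0.05, 198 were higher (14.2% of all genes tested). DESeq2 called 180 (6.43%) and edgeR's likelihood ratio test 171 (10.1%). Without WT leaf 1 the quasi-likelihood test called 121 (14.9%). The members were chosen on this contrast, so nothing is read from these shares. Their log2 fold change was between 1.69 and 3.12, with a median of 1.90. The median over all genes tested was 0.21 with TMM scaling, 0.12 with RLE size factors and -0.06 with library totals alone, and the members' median was 1.90, 1.82 and 1.63 under these scalings. All 200 stayed above 0 under each of the 3.

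In grain, where the rule set only a lower limit, the members' E82/WT ratio was between 0.685 and 12.1, with a median of 1.35, beside 1.16 for the 21641 counted genes with a grain ratio of at least 0.67 outside the stretch of 3D. It was above 1 for 154 members, or 77.0% (72.4% of those genes), and at least 2 for 29, or 14.5% (5.94%). The genes ranked after the members came to 14.3% at that ratio, so the share did not set the members apart from the other eligible genes. Every E82 grain library was above every WT grain library for 34 members, or 17.0%, beside 14.4% of those genes and 17.8% of the later ranks, and no member had the opposite order (1.67% of those genes). With TMM-scaled library sizes 19 members (8.42% of those genes) were higher without overlap and 2 (5.34%) were lower, TraesCS4B02G195900 and TraesCS5A02G487100. The floor on the grain ratio removed genes that were lower in E82 grain, so nothing is read from the direction, which also depended on the scaling: of 186 members tested in grain, the log2 fold change was above 0 for 131 with TMM, 129 with RLE size factors and 151 with library totals alone.

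Of the 186 members tested in grain, the quasi-likelihood test called 0 higher (0.0927% of all genes tested) and 0 lower (1.31%). At an unadjusted p under 0.05, 11 were higher (3.31%) and 1 was lower (6.94%). DESeq2 called 2 higher (0.623%) and the likelihood ratio test also called 2 (0.556%), in each case TraesCS4D02G178100 and TraesCS7A02G460000. TraesCS4D02G178100 had 7.52, 9.53 and 11.4 CPM in E82 grain, against 0.534, 0 and 1.54 CPM in WT grain, and its ratio of 12.1 was the highest in grain. TraesCS7A02G460000 had 5.71, 4.82 and 3.82 CPM in E82 grain, against 0.435, 0.545 and 1.5 CPM in WT grain, a ratio of 5.27. For both genes every E82 library was above every WT library of the same tissue, which the rule required in leaf. In leaf TraesCS7A02G460000 had 18.3, 15.5 and 13.0 CPM in E82, against 5.69, 1.61 and 6.12 CPM in WT.

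The other 3 of the 5 highest grain ratios belonged to genes with 0 counts in at least 1 grain library. TraesCS1D02G060000 (4.72) had 2.72, 0 and 0.788 CPM in E82 grain, against 0, 0 and 0.507 CPM in WT grain. TraesCS3A02G401900 (4.63) had 2.41, 0.982 and 1.58 CPM in E82 grain, against 0, 0.838 and 0 CPM in WT grain. TraesCS6D02G174700 (3.91) had 7.10, 0 and 1.48 CPM in E82 grain, against 0, 0.841 and 1.13 CPM in WT grain. The lines overlapped in grain for TraesCS1D02G060000 and TraesCS6D02G174700. At the low end, near the floor of 0.67, stood TraesCS3D02G144400 (0.685), TraesCS4B02G195900 (0.690), TraesCS2B02G144200 (0.698), TraesCS5A02G386400 (0.716) and TraesCS2B02G402300 (0.720). TraesCS4B02G195900 had 93.4, 125 and 104 CPM in E82 leaf, against 21.2, 41.9 and 19.1 CPM in WT leaf. In grain it had 24.7, 17.2 and 30.4 CPM in E82, against 34.2, 40.7 and 30.0 CPM in WT. The grain libraries overlapped only by E82 grain 3 and WT grain 3, and this gene was the 1 member lower at an unadjusted p under 0.05.

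**Figure D3:**
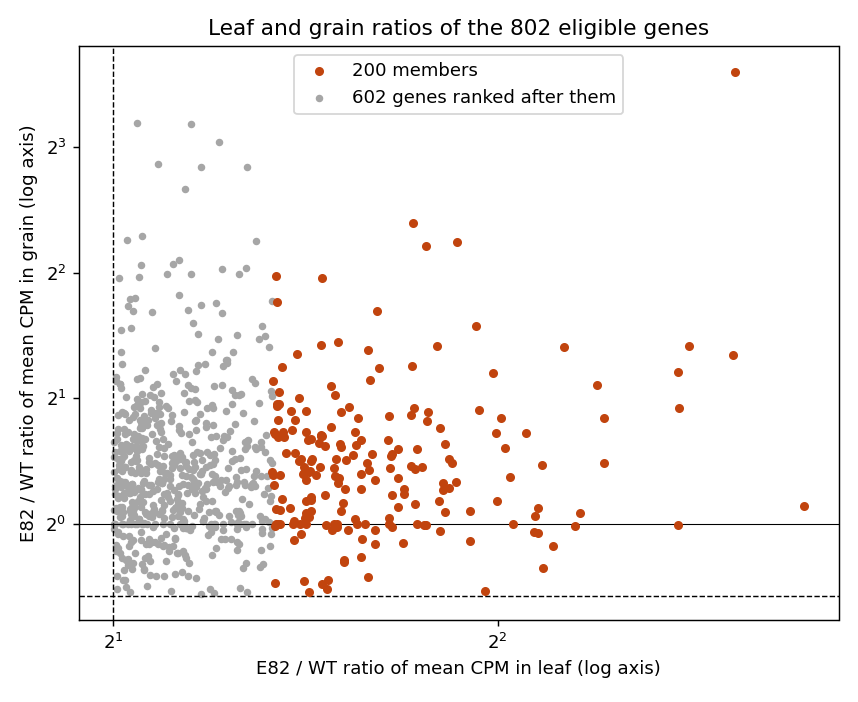
E82/WT ratio of mean CPM in grain against that in leaf for the 802 eligible genes, both on log axes; orange points are the 200 members, grey points the 602 genes ranked after them, dashed lines the limits of 2 in leaf and 0.67 in grain, and the solid line a grain ratio of 1. The members' grain ratios run from 0.685 to 12.1 around a median of 1.35.

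Most members, like the later ranks, had more transcript in leaf than in grain without overlap in E82, and fewer did so without overlap in WT. Every E82 leaf library was above every E82 grain library for 178 members, or 89.0% (35.4% of counted genes and 84.9% of the 602 later ranks), and below for 4, or 2.0% (37.9% and 5.15%). Every WT leaf library was above every WT grain library for 111 members, or 55.5% (37.2% of counted genes and 63.5% of the later ranks), and below for 18, or 9.0% (17.5% and 11.1%). The rule chose high levels in E82 leaf relative to WT leaf, so a difference between these shares is partly fixed by the choice and is given as a description. For 67 members, or 33.5% (6.66% of counted genes), leaf stood above grain without overlap in E82 but not without overlap in WT. These include genes whose WT leaf libraries were mostly higher than their WT grain libraries. In TraesCS2A02G527800, for example, only WT leaf 3 and WT grain 3 overlapped. The count therefore does not mean that a higher level in leaf was absent in WT.

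The 4 members with every E82 grain library above every E82 leaf library were TraesCS2D02G291200, TraesCS5B02G396100, TraesCS2B02G413500 and TraesCS1B02G150500. TraesCS5B02G396100 was the most grain-biased, with 17.7, 20.5 and 12.0 CPM in E82 leaf beside 83.1, 113 and 146 CPM in E82 grain. Its WT libraries had 9.48, 3.32 and 2.65 CPM in leaf and 94.8, 144 and 116 CPM in grain, so that the lines overlapped in grain and not in leaf. TraesCS3B02G090900 was the 1 member in which the order of the tissues was opposite in the lines without overlap (0.0772% of counted genes). It had 35.0, 44.0 and 44.0 CPM in E82 leaf, against 10.2, 22.9 and 3.86 CPM in WT leaf. In grain it had 29.4, 25.7 and 24.8 CPM in E82, against 27.8, 23.4 and 30.6 CPM in WT. The grain levels overlapped, and the highest WT leaf library was just below the lowest WT grain library.

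At the other extreme 11 members, or 5.50%, had 0 counts in all 6 grain libraries (1.81% of counted genes had at most 3 counts in each). A floor of 3 counts is 0.0593 to 0.0946 CPM in the grain libraries and covers counting error only. Their grain ratio of 1 came from the 0.1 CPM added to each mean. These members were TraesCS2B02G030300, TraesCS3B02G073700, TraesCS6A02G001700, TraesCS1A02G152600, TraesCS3B02G490700, TraesCS5B02G068100, TraesCS2D02G423500, TraesCS3B02G611100, TraesCS6D02G160900, TraesCS6D02G323900 and TraesCS3D02G401800. Among them, TraesCS2D02G423500 had 131, 95.3 and 102 CPM in E82 leaf, against 48.6, 36.4 and 25.0 CPM in WT leaf.

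The choice of transcript was not used by the rule. The leading transcript of the members had a median length of 1720 bases, beside 1700 bases for all counted genes, and 56 members, or 28.0% (32.0% of counted genes), had more than 1 annotated transcript. For 23 of these 56, or 41.1%, the share of the gene's TPM held by the transcript that led in E82 leaf did not overlap between the lines in leaf, beside 24.2% of 7425 counted genes. This required neither a large difference nor a change of leading transcript. The mean share was 100% in E82 leaf and 0% in WT leaf for TraesCS1D02G083100. For TraesCS5B02G504900 it was 99.4% and 100%, with the same transcript leading in both lines. Both genes were picked after their values were seen. The leading transcript itself differed between the lines in 12 of the 56, or 21.4% (28.4% of counted genes with several transcripts). It was judged per line, so that single libraries could go the other way. In TraesCS7A02G220400, 1 of the 12, the transcript that led in E82 leaf held 0%, 100% and 100% of the TPM in WT leaf 1, 2 and 3. No test was made of these shares.

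In TraesCS1D02G083100 the lines used different transcripts without exception. Its transcript 2, of 1202 bases, had 9.54, 20.6 and 17.1 TPM in E82 leaf, against 0 TPM in all WT leaf libraries. Its transcript 1, of 1112 bases, had 0 TPM in all E82 leaf libraries, against 2.19, 3.40 and 6.46 TPM in WT leaf. In TraesCS4B02G124800 transcript 1, of 1675 bases, had 7.82, 10.5 and 7.64 TPM in E82 leaf, against 0 TPM in all WT leaf libraries. Its transcript 2, of 1621 bases, had 0, 0.0637 and 0.579 TPM in E82 leaf, against 3.36, 1.59 and 2.51 TPM in WT leaf. In TraesCS2B02G292500 transcript 2, of 3621 bases, had 13.3, 10.2 and 14.1 TPM in E82 leaf, against 0 TPM in all WT leaf libraries, where the shorter transcripts 1 and 3 held the TPM. These genes were picked after their values were seen.

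The transcript that led in E82 leaf was the longer of the pair in 9 of the 12 genes and the one that led in WT leaf in 3. This was not particular to the members: E82 had the longer leading transcript in 88.9% of 2123 counted genes whose leading transcript differed. The mean transcript length weighted by TPM was longer in E82 leaf than in WT leaf without overlap for 21 of the 56 members, or 37.5%, beside 19.5% of the 7425 counted genes, and shorter for 3, or 5.36%, beside 4.46%. Of 182 later ranks, 22.0% were longer and 6.59% shorter without overlap. By the means alone, E82 was longer in 66.1% of the members, 64.8% of the later ranks and 66.3% of the counted genes. The differences were small: the median of E82 minus WT was 5.6 bases in the members, 3.31 bases in the later ranks and 5.22 bases in the counted genes. The weighted length was added after the shares had been seen. The pseudoaligner divides reads among transcripts that share sequence, and likewise among homeologs, so that the division within a gene or between near-identical copies is an estimate. The part of the lower depth and pseudoalignment of WT leaf in these lengths was not tested.

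**Figure D4:**
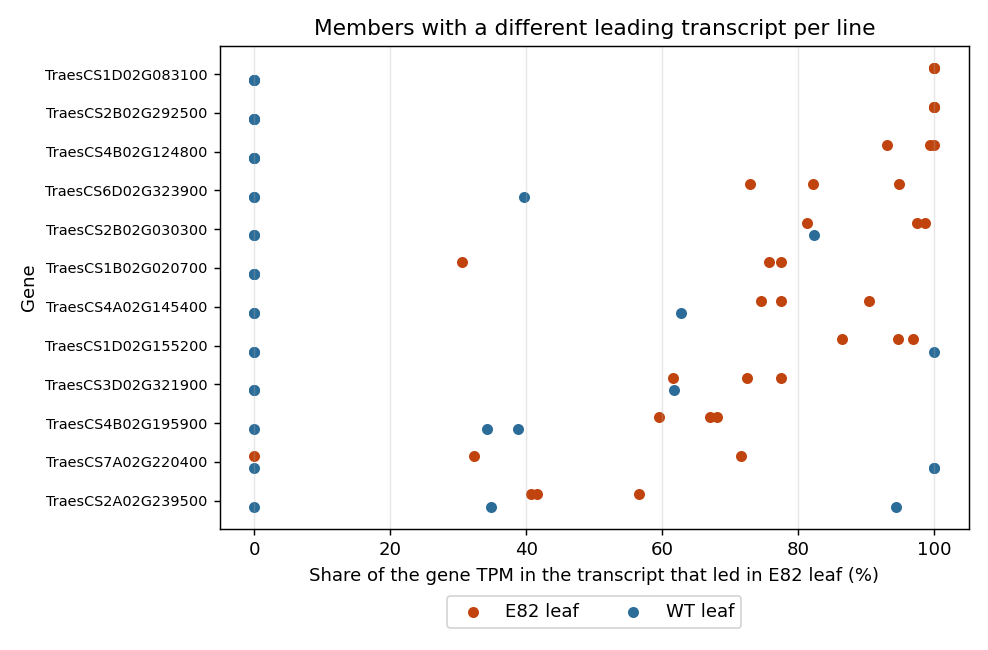
Share of the gene's leaf TPM held by the transcript that led in E82 leaf, for the 12 members whose leading transcript differed between the lines; each point is a library, with E82 above WT for each gene. In TraesCS1D02G083100 and TraesCS2B02G292500 nearly the whole TPM is in that transcript in every E82 leaf library and none in any WT leaf library. The lines overlap in TraesCS2B02G030300, TraesCS1D02G155200, TraesCS3D02G321900, TraesCS7A02G220400 and TraesCS2A02G239500.

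The members were spread over all chromosomes. The A subgenome held 69 members, or 34.5% (33.3% of counted genes), the B subgenome 65, or 32.5% (31.8%), and the D subgenome 64, or 32.0% (33.9%), with 2 on unplaced sequence. These shares, and the value of 0.862 members per 100 counted genes, refer to the 23206 counted genes outside the stretch of 3D. Per 100 counted genes, chromosome 1D was highest, with 16 members among 1056 genes (1.52), followed by 4B (1.24) and 4D (1.19) with 12 members each, while 3A, 3B and 5A held 13 each. Chromosome 5D had the fewest per gene, with 4 of 1327 (0.301 per 100), although 50 of the 802 eligible genes lay there. No test was made of these counts.

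**Figure D5:**
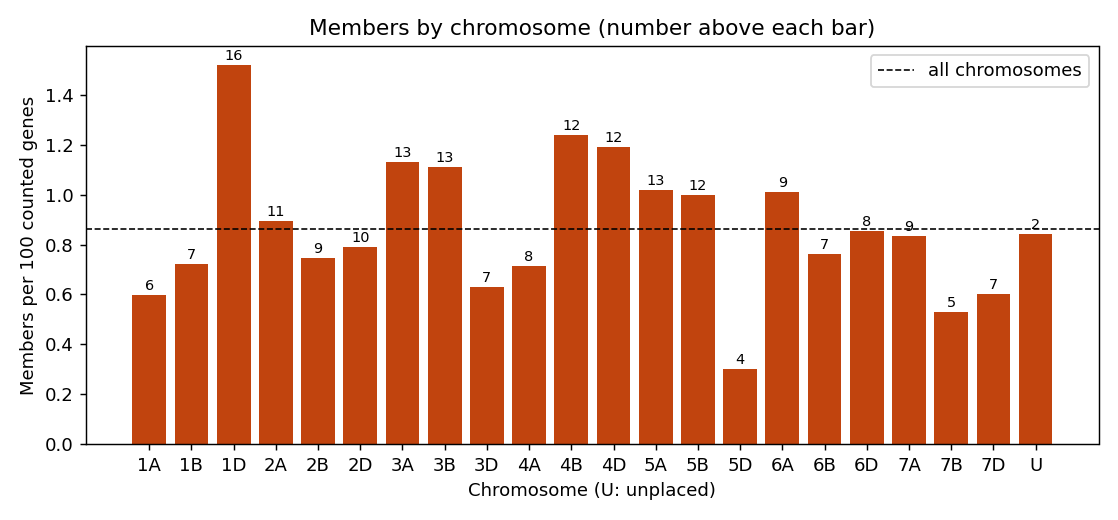
Members per 100 counted genes outside the stretch of 3D on each chromosome, with the number of members above each bar and the value over all chromosomes (0.862) as a dashed line. Chromosome 1D is highest (1.52) and 5D lowest (0.301).

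Members seldom lay next to each other. In the order of the gene IDs a single pair was within 5 steps, TraesCS1D02G416700 and TraesCS1D02G417000 on chromosome 1D, with leaf ratios of 3.31 and 2.70. TraesCS1D02G416700 had 13.9, 23.8 and 15.3 CPM in E82 leaf, against 2.30, 8.24 and 5.26 CPM in WT leaf. TraesCS1D02G417000 had 11.2, 16.2 and 10.4 CPM in E82 leaf, against 2.51, 5.67 and 5.63 CPM in WT leaf. In both genes replicate 2 was the highest library of each line. The genes next to the members did not share the high leaf ratio: the 120 flanking counted genes had a median leaf ratio of 0.785, and 17 of them, or 14.2%, were higher in E82 leaf without overlap (11.2% of all counted genes).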

How the data were processed

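Total RNA was depleted of rRNA and sequenced. Per the labels and methods, the authors used Trimmomatic 0.36 for trimming and kallisto 0.44.0 for pseudoalignment against the IWGSC RefSeq v1.1 transcripts. The deposited gene table holds estimated counts without normalization, and the deposited transcript tables hold TPM and estimated counts for each library. Estimated counts were rounded for the tests. All 12 columns were used, and the groups came from the sample titles.

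Leaf and grain were tested separately, on 6 libraries each, in edgeR 4.0.16 (R 4.3.3) with TMM scaling and the quasi-likelihood test, no replicate block, genes with a CPM sum above 1, Benjamini-Hochberg adjustment and a threshold of 0.05. DESeq2 1.42.0 and edgeR's likelihood ratio test, other scalings and filters, a replicate block and leaving out each library were alternatives. The fits were tested on simulated counts. Summaries and plots were made in Python 3.11.15 (pandas 2.3.3, numpy 2.4.6, matplotlib 3.10.9). A floor of 3 counts, 0.0501 to 0.110 CPM, covers counting error only. The members and lists were chosen with earlier results of these data known.

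Genes are named if a table of the study names them, if they were among the 10 highest leaf ratios or levels, the 5 highest or lowest grain ratios or the 3 on either side of the limit, or if they neighbour another member. Others are marked or belong to a group of at most 12 given in full. None of the IDs matched the reference gene table, so descriptions, cell type markers and promoter motifs were not used here. P-values set the difference between the lines against the spread between biological replicates, 3 per group. In the main test this spread was estimated for each gene over both lines together. In leaf the lines differed in it, with a biological coefficient of variation of 0.424 in E82 and 1.69 in WT.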

Additional observations from a re-analysis of the deposited data

How the results depend on the processing

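The count of members called higher in E82 leaf depended on the test. It was 0 in the quasi-likelihood test, with RLE size factors and with the replicate block, but 105 with 12 libraries sharing an estimate of the spread, 180 with DESeq2, 171 with the likelihood ratio test, 101 with filterByExpr, and 1 each with library totals alone and without the CPM filter. Leaving out a leaf library gave 0 to 121 calls: 121 without WT leaf 1, 2 without WT leaf 3 and 0 without any other. In grain the count was 0 with every alternative except DESeq2 (2), the likelihood ratio test (2) and leaving out WT grain 2 or WT grain 3 (1 each), so that leave-outs gave 0 to 1. No pairing of E82 and WT leaf libraries by replicate number was seen: deviations of same-numbered leaf libraries correlated at 0.021, 0.0126 and -0.0127. The replicate block gave 0 calls in leaf and 0 in grain. The main test also gave 0 in both, so these counts say nothing about pairing. Whether leaf and grain libraries pair by plant was not examined. Of the 200 members, the rule kept 192 with TMM-scaled CPM, 184 with TPM, 184 with 1 CPM added, 165 with 20 counts, 143 with 100 counts and 133 with a ratio of medians. Leaving out a leaf library kept 70 to 170: 104, 107 and 70 without WT leaf 1, 2 and 3, and at least 166 without an E82 library. The members with no overlap in grain numbered 21 with TMM-scaled CPM, beside 34. Those higher in leaf than in grain without overlap were 178 to 183 in E82 and 111 to 124 in WT under every alternative. Fold changes were refitted under the alternatives for 32 named genes in leaf and 10 in grain, and none of these changed sign; grain signs of other members did turn with the scaling. Under each alternative the rule again took at most the 200 highest leaf ratios, so a member could drop out because other genes ranked above it. With 20 counts every member still met the conditions and members were lost only in this way. The causes of the other shifts were not tested.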
